A study of Homo sapiens with 9 samples.

Results

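Aminoacyl-tRNA synthetases were followed across oxygen and glucose deprivation in hCMEC/D3. This immortalised line from human brain microvessels stands in for the endothelium of brain capillaries. The genes were chosen by symbol, as 38 of the 15570 genes in the deposited table. They are 19 cytosolic or shared synthetases, 16 mitochondrial synthetases whose symbols end in 2, and the 3 scaffold genes AIMP1, AIMP2 and EEF1E1. The OGD/R group (n = 3) was deprived for 4 h and then kept for 16 h in normal medium under 21% O2 and 5% CO2. The OGD group (n = 3) spent the 4 h without glucose in 95% N2 and 5% CO2 and was not reoxygenated. The control group (n = 3) received neither treatment, and all 3 groups are the same line, with no genetic change labelled, in mRNA libraries made from 1.3 µg of total RNA. The labels do not say whether replicates came from separate cultures. The p-values therefore measure the spread between 9 libraries, which may be technical.

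Each synthetase joins 1 amino acid to the tRNAs that read its codons, and this charged tRNA is what the ribosome uses. Cytosolic enzymes serve the messages of the nucleus, while a separate nuclear-encoded set is imported into mitochondria to serve the few messages made there. Several cytosolic enzymes are held in a multisynthetase complex by AIMP1, AIMP2 and EEF1E1. Uncharged tRNA is sensed by the kinase GCN2 (EIF2AK4), which phosphorylates eIF2-alpha, as other kinases do under ER stress. This lowers general translation and raises the transcription factor ATF4, whose known targets include many cytosolic synthetase genes.

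Values were FPKM, in which the authors scaled fragments to transcript length and to the mapped total, so levels can be compared between genes per length. They summed to 442696 to 449248 per OGD/R library, 585947 to 605818 per OGD library and 454237 to 537878 per control library. Correlations of log2 values were 0.980 to 0.995 within groups and 0.923 to 0.977 between groups. Read numbers are unknown, and values carry no counting error. A gene was tested if it reached 1 FPKM in at least 3 of the 9 libraries, as 10818 genes did, and all 38 members did. A call is an adjusted p under 0.05 from limma, a linear model fitted across all tested genes. The median log2 fold change of all tested genes was -0.31 in OGD against control, 0.39 in OGD/R against OGD and 0.07 in OGD/R against control. Median-of-ratios scaling brought these medians to 0.01, -0.01 and -0.03, and rescaling each library to a common sum moved them to -0.58, 0.81 and 0.21. A relative value below is a log2 fold change after subtraction of the median on the deposited scale.

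The endothelial label was checked against 12 listed markers, of which 4 passed the filter. VWF, KDR, TEK, TIE1, CLDN5 and ERG stayed under 1 FPKM in every library, at no more than 0.420 FPKM. The summed FPKM of the endothelial list was 36.9 to 47.5 in OGD/R, 7.57 to 8.63 in OGD and 17.0 to 24.2 in control. Summed pericyte and smooth muscle markers were 22.3 to 24.2 in OGD/R, 10.8 to 12.2 in OGD and 15.1 to 18.0 in control. Summed epithelial markers, nearly all from keratin genes, were 238 to 257 in OGD/R, 130 to 140 in OGD and 166 to 201 in control. EPCAM, CDH1 and KRT19 of that list were under 1 FPKM everywhere. Astrocyte markers summed to 29.0 to 33.0, 26.2 to 29.4 and 21.9 to 26.0 FPKM in OGD/R, OGD and control, neuron markers to 17.0 to 21.9, 22.6 to 24.1 and 13.3 to 17.5, and microglia and leukocyte markers to 26.2 to 27.9, 22.1 to 23.1 and 17.2 to 21.6. Of these lists 1 of 6 astrocyte, 1 of 5 neuron and 2 of 6 microglia and leukocyte markers passed the filter. They were GJA1, TUBB3, and CD68 and TREM2. Under 1 FPKM in all 9 libraries were GFAP, SLC1A3 and ALDH1L1, then RBFOX3, SNAP25, SYT1 and MAP2, and then PTPRC, AIF1, ITGAM and CSF1R. In OGD each of these sums was above that of the endothelial list. In bulk RNA, fewer cells of a type and less RNA per cell cannot be told apart, and the part of these markers in the results was not tested.

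Cytosolic synthetases were expressed at several times the level of mitochondrial ones in every group. Group means of the 19 cytosolic genes had a median of 46.9 FPKM in OGD/R, 46.5 FPKM in OGD and 46.1 FPKM in control. Those of the 16 mitochondrial genes had a median of 8.04 FPKM in OGD/R, 7.64 FPKM in OGD and 8.05 FPKM in control. The highest cytosolic mean was that of SARS1 in OGD (140 FPKM) and of TARS1 in OGD/R (105 FPKM) and in control (131 FPKM). The lowest was that of FARSB, a subunit of the phenylalanine enzyme, in OGD/R (9.13 FPKM) and of VARS1 in OGD (6.90 FPKM) and control (5.54 FPKM). RARS2, the mitochondrial arginine enzyme, led its class in all 3 groups, while LARS2 and PARS2 stood near 1 FPKM in at least 1 group. EEF1E1 was the most expressed scaffold gene, at 89.3 FPKM in OGD/R, 146 FPKM in OGD and 130 FPKM in control. No member was listed at 0 in any library.

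**Figure D1:**
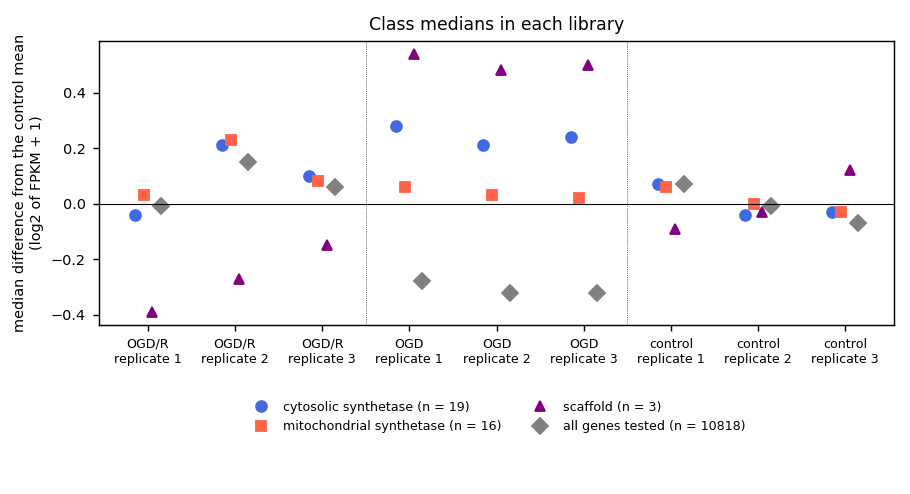
Median difference of each class from the control mean, in log2(FPKM + 1), for the 9 libraries, with the median of all 10818 tested genes as diamonds. In the 3 OGD libraries all genes lie at -0.28 to -0.32 while cytosolic synthetases lie at 0.21 to 0.28 and scaffold genes at 0.48 to 0.54.

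The first comparison asked what 4 h of deprivation did. Transcripts of 8 of the 19 cytosolic synthetases were higher in OGD than in control and 0 were lower, with SARS1, AARS1, WARS1 and IARS1 moving most. No member of any class reached a 2-fold change in any comparison on the log2(FPKM + 1) scale. Across all tested genes, 11.3% were called higher and 46.7% lower. The cytosolic median log2 fold change was 0.27 (range -0.21 to 0.88), against -0.31 for all genes, and 19 of 19 lay above that median. The split depended on scaling. After median-of-ratios scaling it was 18 higher and 0 lower against a background of 27.1% and 22.4%, and after rescaling to a common sum it was 3 higher and 5 lower against 5.65% and 65.4%.

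AARS1, the alanine enzyme (chr16:70252298-70289506, GRCh38), read 48.8, 46.1 and 44.6 FPKM in OGD libraries, against 25.3, 25.1 and 24.8 FPKM in control. Each OGD library stood well above all controls, and the log2 fold change was 0.87 (SE 0.09, 95% interval 0.67 to 1.06, adjusted p = 1.78e-05 by limma). SARS1, the serine enzyme (chr1:109213893-109238182), read 140, 140 and 139 FPKM in OGD, against 88.0, 63.7 and 76.3 FPKM in control. Its OGD values were nearly identical while its controls were spread, and the groups did not overlap (log2 fold change 0.88, SE 0.11, adjusted p = 6.60e-05). These were the largest rises of any synthetase, and 97.7% of tested genes had a lower fold change than AARS1.

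WARS1, the tryptophan enzyme (chr14:100333790-100376327), read 26.6, 23.6 and 27.7 FPKM in OGD, against 19.6, 15.6 and 15.6 FPKM in control (log2 fold change 0.59, SE 0.12, adjusted p = 0.00127). IARS1, the isoleucine enzyme of the complex (chr9:92210207-92293697), read 41.6, 37.6 and 38.7 FPKM in OGD, against 28.9, 24.6 and 24.6 FPKM in control (log2 fold change 0.58, SE 0.13, adjusted p = 0.00244). The groups did not overlap for either gene. GARS1 (chr7:30594735-30634033), whose single gene supplies the glycine enzyme of both compartments, had 69.9, 66.5 and 78.8 FPKM in OGD, against 51.7, 52.0 and 60.3 FPKM in control (0.39, SE 0.10, adjusted p = 0.00696). EPRS1, which carries glutamate and proline activities in 1 protein, had 53.4, 51.0 and 47.1 FPKM in OGD, against 42.9, 35.4 and 41.3 FPKM in control (0.34, SE 0.10, adjusted p = 0.0117). Smaller rises that passed the test were those of CARS1 for cysteine (0.28) and NARS1 for asparagine (0.23, adjusted p = 0.0463).

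The other 11 cytosolic genes were not called. VARS1, for valine, had 6.99, 6.56 and 7.15 FPKM in OGD, against 5.40, 5.91 and 5.31 FPKM in control, without overlap, yet missed the threshold (log2 fold change 0.27, adjusted p = 0.0631). KARS1, the shared lysine enzyme, had 80.5, 88.3 and 85.5 FPKM in OGD, against 80.6, 83.6 and 67.6 FPKM in control (0.14, adjusted p = 0.223). MARS1, for methionine, had 47.3, 47.2 and 45.1 FPKM in OGD, against 48.8, 45.1 and 45.2 FPKM in control (0.01, 95% interval -0.20 to 0.21). MARS1 overlaps DDIT3, which encodes CHOP, by 65 bases on the opposite strand of chromosome 12, and DDIT3 had a log2 fold change of 3.48 in the same libraries. The fold changes of TARS1, RARS1, YARS1, FARSA, FARSB, LARS1, HARS1 and QARS1 lay between -0.21 and 0.32.

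The members of the multisynthetase complex and the free enzymes were also counted apart, by their textbook composition. Of the 7 complex members EPRS1, IARS1, LARS1, MARS1, QARS1, RARS1 and KARS1, 2 were called higher in OGD (EPRS1 and IARS1, median log2 fold change 0.14), and of 12 cytosolic genes outside it, 6 were (median 0.28). By catalytic class, 3 of 9 cytosolic class I genes and 4 of 9 class II genes were called higher, with EPRS1, which holds an activity of each kind, counted in neither. Of all tested genes 11.3% were called higher. Under median-of-ratios scaling 7 of 7 complex members and 11 of 12 genes outside it were called higher. By class it was then 9 of 9 class I and 8 of 9 class II genes, against 27.1% of all genes. The difference between these subgroups was not tested.

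Known ATF4 target promoters carry C/EBP-ATF response elements, so the sites below show which members hold the shared core. The motif TGATGNAA was searched on both strands in the 250 bases upstream of each annotated start in RefSeq for GRCh38.p14, where 33 of the 38 members had an entry. It lies upstream of 3 of 16 cytosolic genes, 1 of 14 mitochondrial genes and 0 of 3 scaffold genes, against 3.89% of 27305 genes (3.14% of 35116 promoters). The 3 cytosolic genes, AARS1, IARS1 and GARS1, are among the 8 called higher. Each window is written 5′ to 3′ on the gene's strand with the match in capitals, as TGATGNAA or its reverse complement.
AARS1, chr16:70289676-70289703, minus strand, 180 to 187 bases upstream: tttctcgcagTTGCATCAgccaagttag
IARS1, chr9:92293698-92293720, minus strand, 6 to 13 bases upstream: tttcagcgcgTTGCATCAcctcc
GARS1, chr7:30594835-30594862, plus strand, 26 to 33 bases upstream of its inner annotated start: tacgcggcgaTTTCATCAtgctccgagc
YARS2, chr12:32756077-32756104, minus strand, 190 to 197 bases upstream: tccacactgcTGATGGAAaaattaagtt
AARS1 and IARS1 share the same 8 letters, and that of GARS1 differs. SARS1, with the largest rise, has no match in this window, nor have WARS1, EPRS1, CARS1 and NARS1, and YARS2 with a match was not called (log2 fold change 0.18, adjusted p = 0.119). The ER stress response element, CCAAT and CCACG separated by 9 bases, lay upstream of 0.0916% of genes and of no member with an entry. A match describes the sequence and says nothing on binding.

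Of the 16 mitochondrial synthetases 2 were called higher in OGD than in control, 2 lower and 12 not called, where 11.3% of all genes were called higher and 46.7% lower. Their median log2 fold change was 0.02 (range -0.28 to 0.46), a relative median of 0.33, and 16 of 16 lay above the median of all genes. EARS2, for glutamate, read 6.22, 5.56 and 6.06 FPKM in OGD, against 4.40, 4.58 and 3.23 FPKM in control (0.46, adjusted p = 0.0123). It shares 3606 bases on the same strand with GGA2, whose log2 fold change was -0.50. IARS2, for isoleucine (chr1:220094132-220148041), read 20.1, 17.8 and 18.7 FPKM in OGD, against 21.6, 22.5 and 24.5 FPKM in control (-0.27, SE 0.10, adjusted p = 0.0360). RARS2 read 29.0, 29.7 and 29.6 FPKM in OGD, against 38.3, 32.2 and 34.6 FPKM in control (-0.24, SE 0.09, adjusted p = 0.0407). These groups did not overlap, but both falls were near the all-gene median, with relative values of 0.04 and 0.07. PARS2, for proline, was called higher at means of 1.36 ± 0.213 FPKM in OGD and 0.821 ± 0.282 FPKM in control (SD, n = 3 each). After median-of-ratios scaling the mitochondrial counts were 9 higher and 0 lower, and after rescaling to a common sum 0 higher and 6 lower.

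Of the 3 scaffold genes 2 rose in OGD and 0 fell, with 3 rising after median-of-ratios scaling and 1 after rescaling to a common sum. AIMP2, a core scaffold of the complex (chr7:6009272-6023834), read 28.3, 29.2 and 31.2 FPKM in OGD, against 16.5, 20.2 and 17.1 FPKM in control (log2 fold change 0.69, SE 0.10, adjusted p = 1.48e-04). AIMP1, also the precursor of a secreted cytokine (chr4:106315544-106349456), read 55.5, 53.2 and 53.9 FPKM in OGD, against 40.9, 31.2 and 42.7 FPKM in control (0.50, SE 0.12, adjusted p = 0.00304). The OGD libraries lay above all controls for both. EEF1E1, which binds the methionine enzyme, had 141, 148 and 148 FPKM in OGD, against 121, 126 and 141 FPKM in control, and was not called (0.17, adjusted p = 0.0942). AIMP2 shares 1588 bases with EIF2AK1 on the opposite strand, and EIF2AK1 fell by 0.59 on the log2 scale. Of the 14 calls in OGD against control, those of AARS1, SARS1, WARS1 and AIMP2 held under all 19 alternatives. Rescaling to a common sum ended those of GARS1, IARS1, EPRS1, EARS2 and AIMP1, that of EPRS1 was also lost without OGD replicate 1, and CARS1, NARS1, IARS2, PARS2 and RARS2 kept theirs in 10, 8, 9, 7 and 8 settings.

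**Figure D2:**
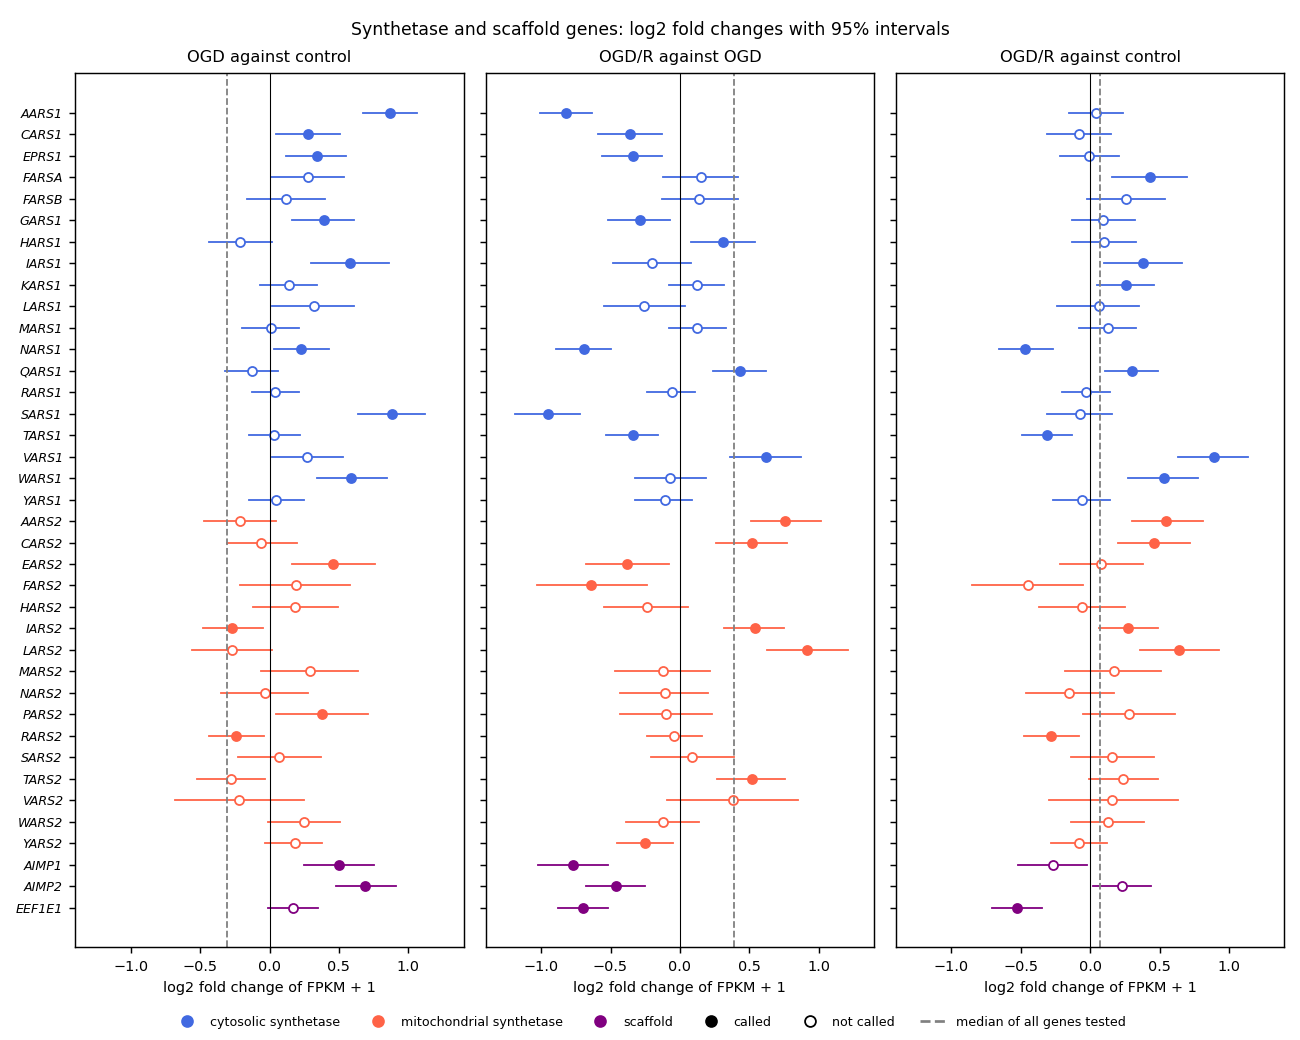
Log2 fold change of FPKM + 1 with 95% intervals for the 38 genes in the 3 comparisons; filled points are called at an adjusted p under 0.05 and the dashed line is the median of all tested genes. In OGD against control every gene lies right of the dashed line at -0.31, and in OGD/R against OGD 7 of 38 do so at 0.39.

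The second comparison set 16 h of reoxygenation against the deprivation that came before it. Among cytosolic synthetases 7 fell in OGD/R relative to OGD and 3 rose, while all 3 scaffold genes fell. Of all tested genes, 53.3% were called higher and 17.4% lower. The cytosolic median log2 fold change was -0.11 (range -0.95 to 0.62), against 0.39 for all genes, and 2 of 19 lay above that median. Under median-of-ratios scaling the counts became 0 higher and 16 lower, against 31.7% and 35.0% of all genes, and 10 higher and 3 lower after rescaling to a common sum, against 71.6% and 7.76%. OGD libraries enter this comparison as well as the first.

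SARS1 read 67.3, 77.7 and 70.1 FPKM in OGD/R, against 140, 140 and 139 FPKM in OGD (log2 fold change -0.95, SE 0.11, 95% interval -1.19 to -0.72, adjusted p = 9.88e-06 by limma). AARS1 read 23.6, 26.7 and 27.5 FPKM in OGD/R, against 48.8, 46.1 and 44.6 FPKM in OGD (-0.82, SE 0.09, adjusted p = 6.12e-06). Both genes fell by close to their rise in OGD. NARS1, the asparagine enzyme (chr18:57600656-57621836), read 76.5, 92.7 and 85.5 FPKM in OGD/R, against 142, 131 and 140 FPKM in OGD (-0.69, SE 0.09, adjusted p = 2.71e-05). EPRS1 had 36.7, 42.5 and 39.5 FPKM in OGD/R, against 53.4, 51.0 and 47.1 FPKM in OGD (-0.34, adjusted p = 0.00769). GARS1 had 52.5, 63.7 and 59.0 FPKM in OGD/R, against 69.9, 66.5 and 78.8 FPKM in OGD (-0.29, adjusted p = 0.0221). In these genes every OGD/R library lay below every OGD library. CARS1, with 21.7, 24.6 and 22.9 FPKM in OGD/R, against 31.8, 29.6 and 28.4 FPKM in OGD (-0.36), and TARS1 (-0.34) completed the 7.

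The 3 that rose were VARS1, QARS1 and HARS1. VARS1, whose enzyme associates with elongation factor eEF1, read 9.69, 11.7 and 12.0 FPKM in OGD/R, against 6.99, 6.56 and 7.15 FPKM in OGD (0.62, SE 0.12, adjusted p = 4.94e-04). QARS1, for glutamine and in the complex, read 62.3, 73.9 and 69.9 FPKM in OGD/R, against 50.4, 50.5 and 50.8 FPKM in OGD (0.43, SE 0.09, adjusted p = 7.67e-04). HARS1, for histidine, read 47.3, 55.1 and 51.3 FPKM in OGD/R, against 42.6, 41.4 and 39.3 FPKM in OGD (0.31, SE 0.11, adjusted p = 0.0205). The groups did not overlap, but relative to all genes the values were 0.23, 0.04 and -0.08, and median-of-ratios scaling ended all 3 calls. WARS1 was not called, with 22.6, 27.9 and 24.0 FPKM in OGD/R, against 26.6, 23.6 and 27.7 FPKM in OGD (-0.07, 95% interval -0.32 to 0.19). MARS1, with 46.9, 57.9 and 48.1 FPKM in OGD/R (0.12), and KARS1 (0.12) were not called either, and IARS1 had 29.3, 42.5 and 31.7 FPKM in OGD/R, overlapping OGD (-0.20, adjusted p = 0.179). By class, 5 of 9 cytosolic class II genes and 1 of 9 class I genes were called lower, against 17.4% of all genes. Under median-of-ratios scaling these were 8 of 9 and 7 of 9, against 35.0% of all genes. The difference between the classes was not tested.

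Of the 16 mitochondrial synthetases 5 were called higher in OGD/R than in OGD, 3 lower and 8 not called, where 53.3% of all genes were called higher and 17.4% lower. Their median log2 fold change was -0.07 (range -0.64 to 0.92), a relative median of -0.46, and 5 of 16 lay above the median of all genes. IARS2 read 26.5, 30.8 and 26.3 FPKM in OGD/R, against 20.1, 17.8 and 18.7 FPKM in OGD (0.54, SE 0.10, adjusted p = 3.80e-04). CARS2, the mitochondrial cysteine enzyme (chr13:110641410-110713522), read 26.6, 30.4 and 28.3 FPKM in OGD/R, against 20.7, 19.5 and 18.6 FPKM in OGD (0.52, SE 0.12, adjusted p = 0.00184). TARS2, for threonine, read 11.1, 12.0 and 11.9 FPKM in OGD/R, against 7.37, 8.83 and 7.46 FPKM in OGD (0.52, SE 0.11, adjusted p = 0.00140). All OGD/R libraries of these genes were above all OGD libraries. The largest fold changes of the class belonged to lowly expressed genes named here after their values were seen. LARS2, for leucine, read 3.06, 2.39 and 2.97 FPKM in OGD/R, against 0.966, 1.25 and 0.833 FPKM in OGD (0.92, SE 0.13, adjusted p = 6.00e-05). AARS2, the mitochondrial alanine enzyme, read 3.26, 3.56 and 3.58 FPKM in OGD/R, against 1.51, 1.77 and 1.62 FPKM in OGD (0.76, SE 0.12, adjusted p = 1.02e-04). With 1 added before the logarithm these fold changes understate the change of the FPKM.

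FARS2, for phenylalanine, went the other way, at 8.42, 8.92 and 11.0 FPKM in OGD/R, against 14.1, 15.9 and 15.4 FPKM in OGD (-0.64, SE 0.18, adjusted p = 0.00774). It shares 11017 bases with LYRM4 on the opposite strand, and LYRM4 had a log2 fold change of -0.74, so reads of the pair may be mixed if strand was not used. EARS2 (-0.38) and YARS2, for tyrosine (-0.25), were also called lower. Median-of-ratios scaling left 2 mitochondrial genes higher (AARS2 and LARS2) and made 10 lower, and rescaling to a common sum gave 8 higher and 0 lower.

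The scaffold genes fell together, all 3 on the deposited scale and after median-of-ratios scaling and 2 after rescaling to a common sum. AIMP1 read 28.8, 31.3 and 34.1 FPKM in OGD/R, against 55.5, 53.2 and 53.9 FPKM in OGD (-0.77, SE 0.12, adjusted p = 7.85e-05). EEF1E1 (chr6:8073360-8102548) read 92.3, 88.9 and 86.7 FPKM in OGD/R, against 141, 148 and 148 FPKM in OGD (-0.70, SE 0.08, adjusted p = 1.19e-05). AIMP2 read 20.8, 21.7 and 20.9 FPKM in OGD/R, against 28.3, 29.2 and 31.2 FPKM in OGD (-0.46, SE 0.10, adjusted p = 0.00102). No library of OGD/R reached the OGD range in any of them. Of the 21 calls in OGD/R against OGD, those of AARS1, SARS1, NARS1, AIMP1, EEF1E1 and LARS2 held under every alternative that tested them. Rescaling to a common sum ended the falls of EPRS1, CARS1, GARS1, TARS1, FARS2, EARS2, YARS2 and AIMP2, and median-of-ratios scaling ended the rises of IARS2, CARS2 and TARS2. Quantile normalization ended the calls of AARS2 (adjusted p = 0.0787), VARS1, TARS1 and TARS2, and removal of the trend with transcript length those of HARS1, QARS1, VARS1 and IARS2. That removal also centred each library, and the part of length alone was not tested. Leaving out 1 library ended the calls of GARS1 (OGD/R replicate 1 or OGD replicate 3), HARS1 (OGD/R replicate 2 or 3 or OGD replicate 3), and EARS2 and YARS2 (OGD/R or OGD, replicate 1 or 3).

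**Figure D3:**
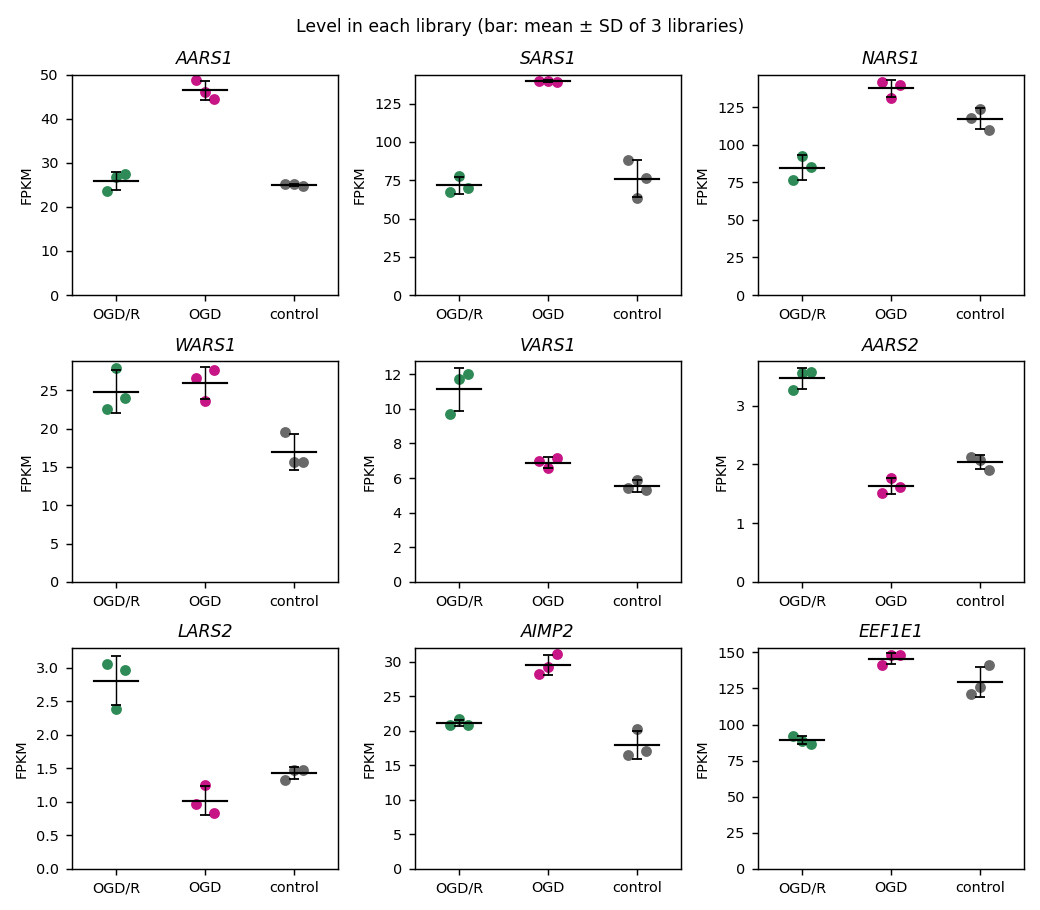
FPKM of 9 genes in each library, with the mean and SD of 3 libraries, for OGD/R, OGD and control from left to right; axes start at 0. AARS1 and SARS1 are high in OGD alone, VARS1, AARS2 and LARS2 are highest in OGD/R, and NARS1 and EEF1E1 are lowest in OGD/R.

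The third comparison asked what differed from control after reoxygenation. The OGD/R group had a further 16 h in normal medium after deprivation. Time, medium and reoxygenation therefore cannot be told apart here or in the second comparison. Of 19 cytosolic synthetases, 6 were higher in OGD/R than in control, 2 were lower and 11 were not called, and among all genes 24.7% were called higher and 16.5% lower. The cytosolic median was 0.09 (range -0.47 to 0.89), close to the 0.07 of all genes. Mitochondrial synthetases had 4 of 16 higher and 1 lower (median 0.16), and the scaffold genes 0 higher and 1 lower. These shares are near those of all genes. After median-of-ratios scaling the counts were 4 and 2 for cytosolic and 3 and 2 for mitochondrial genes, against 21.6% higher and 23.6% lower in all, and after rescaling to a common sum 6 and 1 and 5 and 0, against 31.1% and 8.62%.

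VARS1 (chr6:31777518-31795752) differed most, with 9.69, 11.7 and 12.0 FPKM in OGD/R, against 5.40, 5.91 and 5.31 FPKM in control (log2 fold change 0.89, SE 0.12, 95% interval 0.63 to 1.14, adjusted p = 1.51e-04 by limma). WARS1 had 22.6, 27.9 and 24.0 FPKM in OGD/R, against 19.6, 15.6 and 15.6 FPKM in control (0.53, SE 0.12, adjusted p = 0.00387). FARSA, the other subunit gene of the phenylalanine enzyme, had 44.7, 49.9 and 46.1 FPKM in OGD/R, against 43.8, 30.9 and 30.5 FPKM in control (0.43, SE 0.12, adjusted p = 0.0155). Control replicate 1 of FARSA lay near the OGD/R range, and leaving out control replicate 3 or OGD/R replicate 2 ended the call (largest adjusted p 0.0607). IARS1 had 29.3, 42.5 and 31.7 FPKM in OGD/R, against 28.9, 24.6 and 24.6 FPKM in control (0.38, adjusted p = 0.0314). QARS1 had 62.3, 73.9 and 69.9 FPKM in OGD/R, against 55.5, 58.8 and 52.3 FPKM in control (0.30, adjusted p = 0.0162). KARS1 had 88.6, 91.6 and 96.4 FPKM in OGD/R, against 80.6, 83.6 and 67.6 FPKM in control (0.26, adjusted p = 0.0440). These 3 called rises had no overlap between groups, and they held in 13, 15 and 7 of 19 alternatives. Without OGD/R replicate 2 the cytosolic count was 2 higher, and without control replicate 3 it was 3.

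NARS1 had 76.5, 92.7 and 85.5 FPKM in OGD/R, against 118, 124 and 110 FPKM in control (-0.47, SE 0.09, adjusted p = 0.00171). EEF1E1 had 92.3, 88.9 and 86.7 FPKM in OGD/R, against 121, 126 and 141 FPKM in control (-0.53, SE 0.08, adjusted p = 4.18e-04). Both fell without overlap and held under all 19 alternatives. TARS1, for threonine (chr5:33440696-33468091), had 99.6, 112 and 105 FPKM in OGD/R, against 137, 128 and 127 FPKM in control (-0.31, SE 0.08, adjusted p = 0.0106), a call that rescaling to a common sum ended. AIMP1 had a log2 fold change of -0.27 (adjusted p = 0.0819) and AIMP2 one of 0.23 (adjusted p = 0.0786), and neither was called. AARS1 (0.04, 95% interval -0.15 to 0.24), SARS1 (-0.07, 95% interval -0.31 to 0.16), GARS1 (0.09) and EPRS1 (-0.01) were not called in OGD/R against control.

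On the mitochondrial side CARS2 had 26.6, 30.4 and 28.3 FPKM in OGD/R, against 24.8, 18.4 and 18.5 FPKM in control (0.46, SE 0.12, adjusted p = 0.00845). LARS2 was 2.81 ± 0.364 FPKM in OGD/R and 1.43 ± 0.0928 FPKM in control (SD, n = 3 each, 0.64, adjusted p = 0.00238). AARS2 was 3.46 ± 0.179 FPKM in OGD/R and 2.04 ± 0.119 FPKM in control (0.55, adjusted p = 0.00293). The calls of these 3 genes held under every alternative that tested them. IARS2 (0.27, adjusted p = 0.0435) was called higher and kept its call in 6 of 19 alternatives. RARS2, at 27.5, 31.1 and 27.4 FPKM in OGD/R, against 38.3, 32.2 and 34.6 FPKM in control, was the gene called lower (-0.28, adjusted p = 0.0295), in 13 of 19. HARS2, MARS2, NARS2, SARS2, VARS2 and WARS2 were called in none of the 3 comparisons, nor were RARS1, YARS1, FARSB, LARS1 and MARS1.

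The balance between the cytosolic and the mitochondrial enzyme for 1 amino acid can be read as a log2 ratio of FPKM inside a library. A single scaling factor per library leaves this ratio unchanged. Quantile normalization and removal of the length trend can change it, and it was not recomputed under them. Ratios were described for 16 pairs, with no test, and EPRS1 enters them against both EARS2 and PARS2. The median ratio of the pairs was 2.63 to 2.70 in OGD/R, 2.66 to 2.73 in OGD and 2.48 to 2.75 in control libraries, and these ranges overlap. The median difference within pairs was 0.30 in OGD against control, -0.10 in OGD/R against OGD and -0.12 in OGD/R against control. In OGD against control the ratio was higher in OGD without overlap for alanine, cysteine, isoleucine, leucine, asparagine, arginine, serine, threonine and tryptophan. It was lower without overlap for histidine, and the other pairs overlapped. For alanine, AARS1 over AARS2 was 2.85, 2.91 and 2.94 in OGD/R, 5.01, 4.71 and 4.79 in OGD and 3.57, 3.59 and 3.70 in control. The 3 groups did not overlap, and in linear terms AARS1 stood at 7.47, 28.5 and 12.3 times AARS2 by group means. For leucine the ratio LARS1 over LARS2 was 2.94, 3.50 and 3.10 in OGD/R, 5.12, 4.53 and 5.13 in OGD and 3.87, 4.33 and 4.07 in control. For serine SARS1 over SARS2 averaged 3.18 ± 0.07 in OGD/R, 4.24 ± 0.07 in OGD and 3.43 ± 0.17 in control (SD, n = 3 each). Ratios over lowly expressed genes shrank when 1 was added to each FPKM. In OGD/R against OGD the alanine difference went from -1.93 to -1.58 and the leucine one from -1.74 to -1.17. That of EPRS1 over PARS2 in OGD against control went from -0.43 to -0.05.

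The cysteine pair changed sign. CARS1 over CARS2 was -0.29, -0.31 and -0.31 in OGD/R, 0.62, 0.60 and 0.61 in OGD and 0.13, 0.21 and 0.45 in control, so the mitochondrial transcript was the more abundant in OGD/R libraries alone. CARS2 overlaps ING1 by 900 bases, and ING1 averaged 5.65 FPKM in OGD/R, 4.25 FPKM in OGD and 7.15 FPKM in control. For isoleucine IARS1 over IARS2 was 0.15, 0.46 and 0.27 in OGD/R, 1.05, 1.08 and 1.05 in OGD and 0.42, 0.13 and 0.00 in control. For phenylalanine FARSA over FARS2 ran higher in OGD/R (2.41, 2.48 and 2.07) than in OGD (1.57, 1.41 and 1.45) or control (1.33, 1.76 and 1.10). Over the 16 pairs the mean ratio was higher in OGD than in control for 11, and higher in OGD/R than in OGD for 7.

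Histidine was among the other 5 pairs, whose mean ratio was lower in OGD than in control. HARS1 over HARS2 was 1.88, 2.16 and 1.96 in OGD/R, 1.57, 1.38 and 1.32 in OGD and 1.84 ± 0.15 in control (SD, n = 3), lowest in OGD without overlap. HARS1 itself read 42.6, 41.4 and 39.3 FPKM in OGD, against 53.0, 40.5 and 50.4 FPKM in control (-0.21, adjusted p = 0.109). HARS2 read 12.9, 12.3 and 13.2 FPKM in OGD/R, 14.4, 15.9 and 15.8 FPKM in OGD and 15.3, 10.1 and 15.4 FPKM in control (OGD against control 0.18, adjusted p = 0.276). Neither was called in OGD against control, although the ratio separated the groups. The genes are neighbours that point away from each other, and their annotated starts, at 140691370 and 140691455 on chromosome 5, leave 84 bases between them. This shared stretch is printed because both genes start from it (RefSeq, GRCh38.p14, plus strand, reading from HARS1 to HARS2).
HARS1 to HARS2, chr5:140691371-140691454: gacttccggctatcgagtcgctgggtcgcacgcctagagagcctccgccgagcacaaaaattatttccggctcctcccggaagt
Both genes are close paralogues, and how reads that fit both were assigned is not given in the sources used here.

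**Figure D4:**
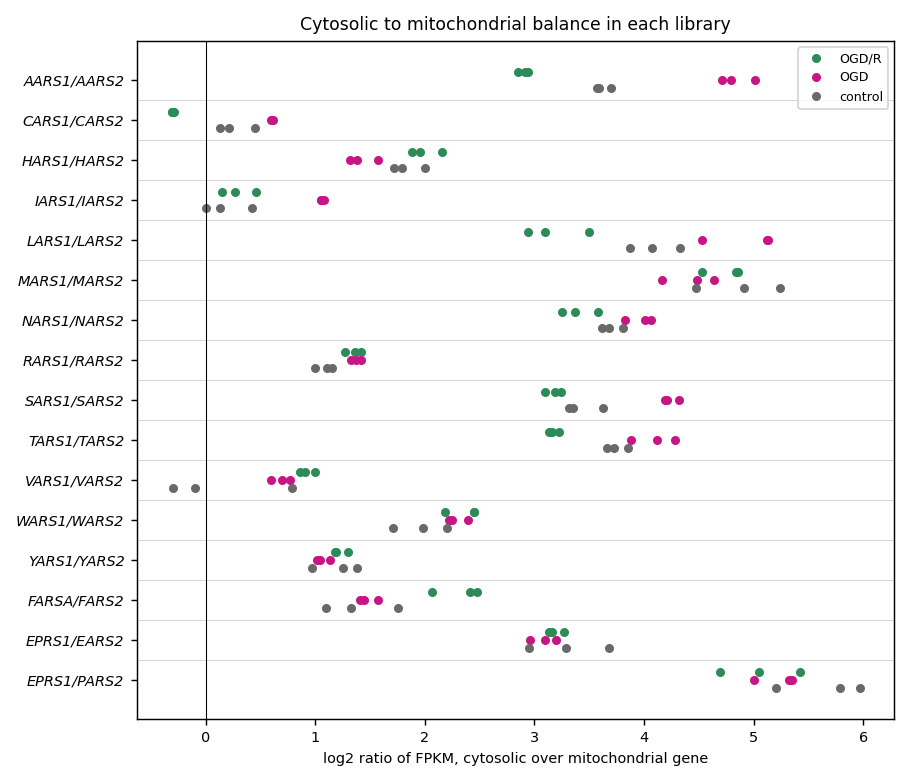
Log2 ratio of FPKM, cytosolic over mitochondrial gene, for 16 pairs; each point is 1 of 9 libraries in OGD/R, OGD or control, and 0 marks equal FPKM. AARS1/AARS2 runs from 2.85 to 2.94 in OGD/R, from 4.71 to 5.01 in OGD and from 3.57 to 3.70 in control, and CARS1/CARS2 is below 0 in OGD/R alone.

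Genes that act around the synthetases were counted from textbook lists, which were chosen with earlier results of these data known. Each count stands against 11.3% of all genes called higher and 46.7% lower in OGD against control, and 53.3% higher and 17.4% lower in OGD/R against OGD. Under median-of-ratios scaling these shares were 27.1% and 22.4%, then 31.7% and 35.0%. After rescaling to a common sum they were 5.65% and 65.4%, then 71.6% and 7.76%. Of the ATF4 list, 22 of 25 genes were tested, and 15 were higher and 3 lower in OGD against control, then 4 higher and 16 lower in OGD/R against OGD. The OGD counts were 18 and 0 after median-of-ratios scaling and 12 and 4 after rescaling to a common sum. ATF4 read 534, 518 and 549 FPKM in OGD, against 370, 292 and 336 FPKM in control (log2 fold change 0.69, adjusted p = 1.51e-04). ASNS, asparagine synthetase, read 118, 119 and 117 FPKM in OGD, against 65.7, 58.4 and 62.8 FPKM in control (0.91, adjusted p = 2.58e-05), and 21.7, 28.2 and 25.1 FPKM in OGD/R. Its log2 fold change in OGD/R against control was -1.29 (adjusted p = 5.47e-06), where NARS1, which uses the same amino acid, had -0.47. DDIT3 (3.48), STC2, a secreted glycoprotein (1.59), and NUPR1, a stress-induced chromatin regulator (1.54), had the largest rises of the list in OGD. ATF3 was among the 3 called lower there (-0.50, adjusted p = 0.00594 by limma). Under median-of-ratios scaling it was not called (-0.15), and in OGD/R against OGD its log2 fold change was 1.27 on the deposited scale.

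GCN2 was lower in OGD. EIF2AK4 read 8.61, 8.12 and 7.50 FPKM in OGD, against 13.5, 12.7 and 12.8 FPKM in control (-0.63, adjusted p = 5.17e-04), and its log2 fold change in OGD/R against OGD was 0.90. It belongs to a list of 7 genes with the other eIF2-alpha kinases, the GCN2 coactivator GCN1, IMPACT and the eIF2-alpha gene EIF2S1. Of this list 5 were lower and 0 higher in OGD, where 46.7% of all genes were lower. Then 5 were higher and 1, IMPACT (-0.29), lower in OGD/R against OGD, where 53.3% of all genes were higher. The relative medians of the list were -0.21 and 0.51, and after median-of-ratios scaling 3 were lower and 1, IMPACT (0.42), higher in OGD. GCN1 was 2.13, 1.82 and 1.77 FPKM in OGD, against 3.85, 3.30 and 2.42 FPKM in control (-0.52, adjusted p = 0.00972, a call lost under median-of-ratios scaling at -0.25 and adjusted p = 0.0934), and had a log2 fold change of 1.55 in OGD/R against OGD.

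WARS1 is also a known interferon-gamma target, so its course was set beside that list. Of 15 interferon-gamma responsive genes 11 were lower and 1 higher in OGD against control, and 11 were higher and 0 lower in OGD/R against OGD. Of all genes 46.7% were lower in the first of these comparisons and 53.3% higher in the second, and the relative medians of the list were -0.34 and 0.51. After median-of-ratios scaling the counts were 1 higher and 8 lower, then 8 higher and 1 lower. IRF1, a transcription factor of this response, had log2 fold changes of -1.08 in OGD against control and 1.65 in OGD/R against OGD. WARS1 had 0.59 and -0.07. The region upstream of an inner annotated start of WARS1 holds matches to GAAANNGAA, the core of the interferon-stimulated response element, and to TTCNNNGAA, the gamma-activated site, which lie upstream of 8.41% and 8.09% of all genes. Capitals mark the matches.
WARS1, interferon-stimulated response element, chr14:100375384-100375412, minus strand, 47 to 55 bases upstream: tttcagaaggGAAACTGAAagaaagaggg
WARS1, gamma-activated site, chr14:100375471-100375499, minus strand, 134 to 142 bases upstream: gctcaagtgtTTCTGAGAAtctgggtgat
The first motif also lies upstream of GARS1, IARS1, EARS2 and EEF1E1, and the second upstream of TARS1, PARS2 and WARS2.

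All 4 genes of the eEF1 complex, which delivers charged tRNA to the ribosome, were higher in OGD against control and all 4 lower in OGD/R against OGD, counts that median-of-ratios scaling left at 4 and rescaling to a common sum at 3 and 4. EEF1B2, its exchange factor, had log2 fold changes of 1.21 and -1.80, and EEF1A1 had 0.95 and -1.77. XPOT, which exports tRNA from the nucleus, read 52.8, 49.1 and 47.2 FPKM in OGD, against 41.2, 38.3 and 32.7 FPKM in control (0.41, adjusted p = 0.00997), and 26.9, 35.5 and 30.8 FPKM in OGD/R (OGD/R against OGD -0.67, adjusted p = 2.32e-04). Of 24 tRNA processing and export genes 6 were higher and 1 lower in OGD, and 3 higher and 9 lower in OGD/R against OGD. Those counts moved with the scaling, as did those of all genes. Under median-of-ratios scaling they were 14 higher and 0 lower and then 2 and 20. All genes then had 27.1% higher and 22.4% lower, and next 31.7% and 35.0%. After rescaling to a common sum they were 3 higher and 11 lower and then 8 and 5. All genes then had 5.65% higher and 65.4% lower, and next 71.6% and 7.76%. RPP40 and RPP21, protein subunits of RNase P, which trims tRNA precursors, had log2 fold changes of 0.91 and 0.59 in OGD against control. ELAC2, which cuts the other end of the precursor, was not called in OGD against control (-0.17, adjusted p = 0.107) but was called higher there under median-of-ratios scaling (0.19, adjusted p = 0.0415). It rose by 0.77 on the log2 scale in OGD/R against OGD (adjusted p = 1.02e-05).

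Of 6 tested genes for indirect charging and formylation 2 were lower in OGD against control, among them GATC, a subunit of the enzyme that makes glutaminyl-tRNA in mitochondria (-0.56, adjusted p = 0.00154, not called under median-of-ratios scaling at -0.20). Of 4 genes that edit mischarged tRNA, AARSD1, which clears serine wrongly joined to alanine tRNA, had 20.3, 22.0 and 21.2 FPKM in OGD and a log2 fold change of 0.66 against control (adjusted p = 0.00519), the same direction as AARS1. It had 13.9, 11.1 and 7.96 FPKM in OGD/R (-0.92 against OGD, adjusted p = 3.47e-04). Of 10 mitochondrial elongation and release genes 1 was higher and 1 lower in OGD, and MRRF, the ribosome recycling factor, was the higher one (1.27, adjusted p = 1.44e-04). Under median-of-ratios scaling these 3 lists had 3 higher and 1 lower, 3 and 0, and 5 and 0 in OGD against control. They had, in OGD/R against OGD on the deposited scale, 1 higher and 2 lower, 0 higher and 2 lower, and 2 higher and 3 lower. In OGD/R against control 24.7% of all genes were called higher and 16.5% lower. The same 3 lists then had 0 higher and 2 lower of 6, 0 and 0 of 4, and 0 and 1 of 10. The tRNA processing list had 2 higher and 9 lower of 24, and the eEF1 complex 0 and 3 of 4. The ATF4 list had 7 higher and 10 lower of 22, the GCN2 list 2 and 0 of 7 and the interferon-gamma list 7 and 0 of 15.

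**Figure D5:**
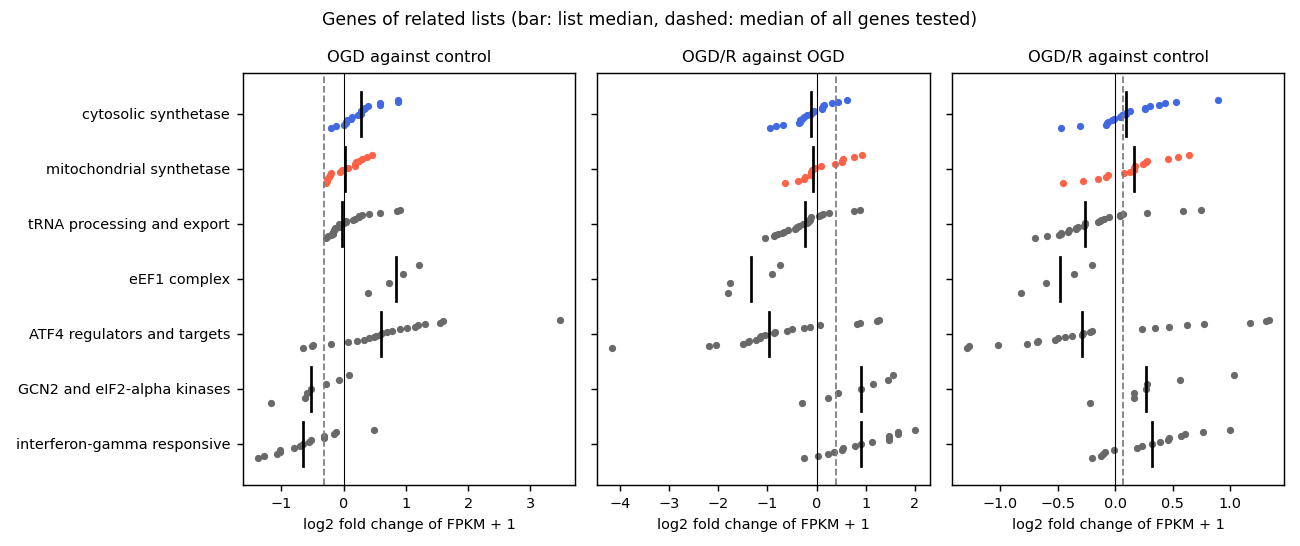
Log2 fold changes of FPKM + 1 for the genes of 7 lists in the 3 comparisons, each point 1 gene, with the list median as a bar and the median of all tested genes dashed; the horizontal scale differs between panels. Medians in OGD against control are 0.27 for cytosolic and 0.02 for mitochondrial synthetases, 0.83 for the eEF1 complex, 0.60 for the ATF4 list, -0.52 for GCN2 and the eIF2-alpha kinases and -0.65 for interferon-gamma responsive genes.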

How the data were processed

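Per the labels' protocols, mRNA libraries were made with a SMARTer kit from 1.3 µg of total RNA of hCMEC/D3 cells, 3 libraries per group. The authors deposited 1 table of FPKM values per gene, which they had normalized for gene length and mapped fragments. The genome build was GRCh38, per the submitters' processing notes, and no source used here gives the aligner, quantifier, annotation or use of strand. No read counts were used, so depth and counting error are unknown. If strand was not used, overlapping genes share reads. All 15570 genes matched a RefSeq GRCh38.p14 record by NCBI Gene ID, 0 value columns lacked a sample, and no 2 of the 9 libraries shared values (36 pairs, 0.0% identical). A value of 0 may be a failed estimate for 7 genes that exceed 10 FPKM in another library, none of them a member.

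The 10818 genes that reached 1 FPKM in 3 or more libraries were kept. Log2(FPKM + 1) was fitted with limma 3.58.1 in R 4.3.3, all 3 groups in 1 model with an intensity trend (6 residual and 6.33 prior degrees of freedom), 2-sided, with Benjamini-Hochberg adjustment over all tested genes and a threshold of 0.05. Fold changes on this scale understate the change of low genes. The procedure was tested on simulated data. Results were recomputed under 19 alternatives, 9 of which leave out 1 library. Named members are the up to 6 largest called rises and falls per comparison with a mean of at least 5 FPKM, plus members with a shared start, overlap or double role. Members and lists were chosen with earlier results of these data known. Ratios between genes were described without a test. Motifs were searched and figures drawn in Python 3.11.15 with pandas 2.3.3 and matplotlib 3.10.9.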

Additional observations from a re-analysis of the deposited data

How the results depend on the processing

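Scaling was the choice that moved most counts. Removal of the length trend also centred each library, so it acts as a scaling too. It brought the all-gene medians to -0.02 in OGD against control, -0.01 in OGD/R against OGD and -0.03 in OGD/R against control. In OGD against control, genes called higher and lower numbered 2930 and 2422 under median-of-ratios scaling, 2166 and 2427 under quantile normalization, 2296 and 2554 with the length trend removed, and 611 higher after rescaling to a common sum. Cytosolic synthetases called higher were then 18 after median-of-ratios scaling, 17 with the length trend removed and 3 after rescaling to a common sum, with 5 lower. Mitochondrial ones called higher were 9 after median-of-ratios scaling or quantile normalization, 6 with the length trend removed, 0 after rescaling, and 1 with no filter, a filter at 5 FPKM or only the 2 groups. Those called lower were 0 under quantile normalization, median-of-ratios scaling or removal of the length trend, 6 after rescaling and 1 with no intensity trend. In OGD/R against OGD, genes called higher and lower numbered 3432 and 3783 under median-of-ratios scaling, 3399 and 3386 under quantile normalization and 3255 and 3343 with the length trend removed, and 840 were lower after rescaling. Cytosolic ones called higher and lower were 0 and 16 after median-of-ratios scaling, 0 and 12 with the length trend removed and 10 and 3 after rescaling. Mitochondrial ones were 2 and 10 under median-of-ratios scaling, 3 and 10 under quantile normalization and 8 and 0 after rescaling, with 6 lower when the length trend was removed and 3 higher at a filter of 5 FPKM. In OGD/R against control, 933 genes were lower after rescaling, as was 1 cytosolic and 0 mitochondrial synthetases. Cytosolic ones called higher were 3 with only the 2 groups, mitochondrial ones called higher 2 at 5 FPKM, and mitochondrial ones called lower 2 after median-of-ratios scaling or quantile normalization and 0 with only the 2 groups. The cause of these shifts was not tested.

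Among fold changes of members called on the deposited scale or under the alternative, the following reversed with the scaling, and none of these was in OGD/R against control. In OGD against control rescaling to a common sum gave -0.27 for MARS1, -0.05 for NARS1, -0.24 for RARS1 and -0.24 for TARS1. Median-of-ratios scaling gave 0.25 for QARS1, 0.31 for CARS2, 0.10 for IARS2 and 0.13 for RARS2, quantile normalization 0.01 for IARS2 and 0.34 for NARS2, and removal of the length trend 0.02 for IARS2. In OGD/R against OGD rescaling gave 0.05 for CARS1, 0.07 for EPRS1, 0.13 for GARS1, 0.36 for RARS1, 0.08 for TARS1, 0.35 for WARS1, 0.31 for YARS1, 0.38 for RARS2 and 0.16 for YARS2. Median-of-ratios scaling gave -0.33 for FARSA, -0.30 for FARSB, -0.17 for HARS1, -0.37 for KARS1, -0.36 for MARS1, -0.05 for QARS1 and -0.35 for SARS2, quantile normalization -0.37 for FARSB and -0.44 for SARS2, and removal of the length trend -0.08 for HARS1.

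Leaving out 1 library at a time, in OGD against control 975 to 1357 genes were higher and 4182 to 5341 lower, with 5 to 8 cytosolic synthetases higher and 0 to 1 lower (5 without OGD replicate 1, 1 without control replicate 2) and 1 to 2 mitochondrial ones higher and 0 to 2 lower. In OGD/R against OGD 5154 to 5917 genes were higher and 1668 to 1991 lower, with 2 to 3 cytosolic ones higher and 6 to 8 lower and 5 to 6 mitochondrial ones higher and 1 to 4 lower. In OGD/R against control 1905 to 3015 genes were higher and 1366 to 1884 lower, with 2 to 6 cytosolic ones higher and 2 lower and 3 to 4 mitochondrial ones higher and 0 to 2 lower. No pairing by replicate number was seen, though these values cannot exclude one. Deviations of same-numbered libraries correlated at -0.200 to 0.148, and those of differently numbered libraries of 2 groups at -0.242 to 0.370. With the number as a block, 6 cytosolic synthetases were higher and 0 lower in OGD against control, 3 and 7 in OGD/R against OGD and 5 and 2 in OGD/R against control, and mitochondrial ones were 1 and 0, 5 and 2, and 3 and 0. The blocked fit called 1166 genes higher and 4790 lower, 5634 and 1818, and 2474 and 1654 in the same comparisons. Depth is unknown, so how far it limits the genes near 1 FPKM cannot be stated.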
